A study of Mus musculus with 6 samples.

Results

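The genes described here are 32 mouse interferon-stimulated genes, chosen by name from the interferon response and found on the arrays through the RefSeq accession of each probe. Of these, 30 had a probe and were measured, out of 29193 genes and transcripts tested in all; Mx2 and Xaf1 matched no probe and are not analysed here. All 30 measured members were well above background on all 6 arrays, as were 92.4% of everything tested. For 10 members a further probe existed, 12 in all, and 9 of these 12 changed in the same direction as the brightest probe, which stands for the gene.

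Lhx2 cells are a mouse line with features of blood progenitors, in which the LIM-homeobox gene Lhx2 is expressed by force to keep the cells growing. They were grown in 5% fetal calf serum with mouse stem cell factor at 100 ng/ml and human interleukin 6 at 10 ng/ml, and before the experiment the serum was exchanged for 0.5% bovine serum albumin overnight. The 3 untreated arrays received no transforming growth factor β1 (0 ng/ml of TGF-β1), and the 3 treated ones got 10 ng/ml of it over 2 h, so the untreated cells share the line, the cytokines and the starvation with the treated ones. Each replicate number is an independent RNA harvest, called harvest 1, 2 or 3 here, and an untreated and a treated array of the same number are called a pair; whether the harvests were separate cultures is not given in the sources used here, so p-values measure the spread between these RNA samples.

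Interferons are secreted proteins, and cells release those of type I and type III on sensing viral nucleic acids. Type I and type III interferons act through receptors coupled to Janus kinases, which phosphorylate STAT proteins; STAT2 and IRF9 are subunits of the resulting complex ISGF3, which binds the interferon-stimulated response element in the promoters of its target genes. The response to interferon gamma runs mainly through the gamma-activated site. The target genes encode sensors, antiviral effectors, the ubiquitin-like protein ISG15 and its enzymes, antigen transporters and chemokines, and some of them feed back on the pathway. Blood stem and progenitor cells are known to express a subset of these genes without infection.

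The promoters of the members were read as well, and their letters did not enter the choice of members. Since interferon targets were chosen by name, a higher share of response elements describes the list and is no independent result. RefSeq promoters of build GRCm38.p6, from 250 bases before to 50 after the start site, were in the table used here for 25 of the 32 genes. The core of the interferon-stimulated response element was searched as GAAANNGAA on both strands, and the core of the gamma-activated site as the palindrome TTCNNNGAA. The response element core was present for 17 of the 25 genes (68%), against 9.76% of 27025 genes in the whole table; counted by promoter this was 56.7% of 30 against 8.56% of 32851. The core of the gamma-activated site was present for 8 of the 25 genes (32%), against 9.55% of all genes. The motifs stood together in 5 members, overlapping each other in 2 of them (Bst2 and Ifitm3), and 20 members held either one. Irf7, Irf9, Oasl2, Tap1 and Xaf1 held neither in this window, Irf1, Ifit2 and Ifi35 held the gamma-activated site core alone, and Dhx58, Oas2, Mx2, Usp18, Parp9, Parp14 and Tap2 are not in the table. A match describes the letters only and is not a measured binding site.

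**Figure D1:**
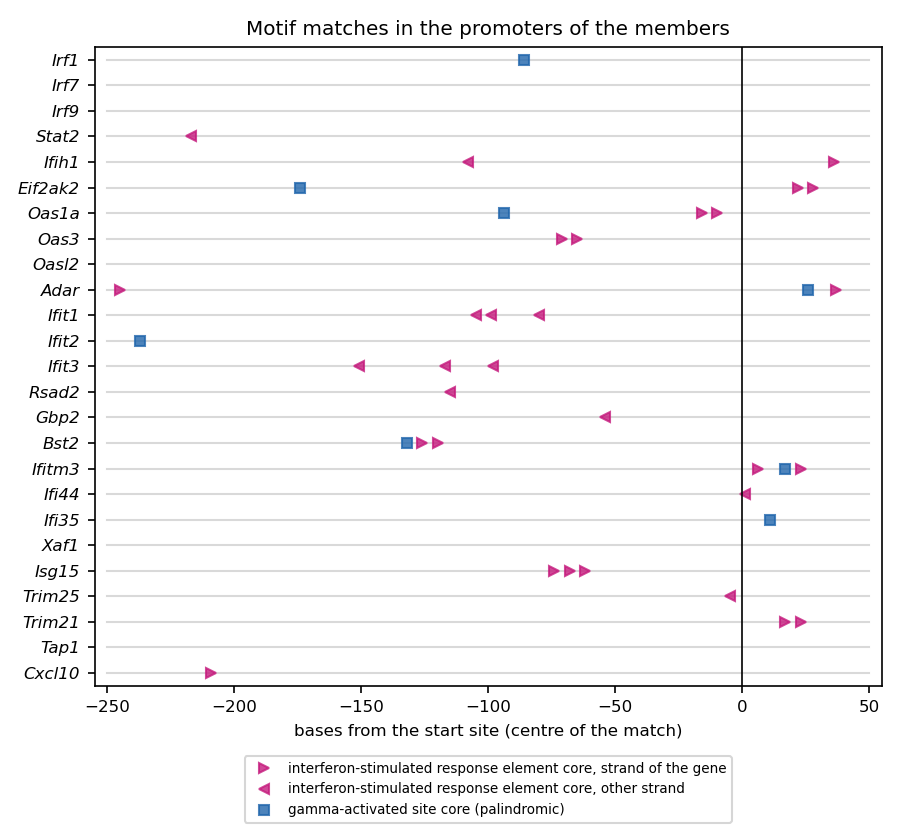
Positions of the motif cores in the promoters of the 25 members in the RefSeq table, in bases from the start site; triangles mark the response element core and point along its strand, and squares mark the gamma-activated site core. Of 31 response element matches, 22 lie wholly before the start site, and 11 members hold more than 1.

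The stretch around the response element nearest to the start site, among those before it, is shown for 6 members picked by hand. They are effectors among those that differed most between harvests or with treatment (Ifit3, Ifit1, Rsad2), the modifier Isg15, the chemokine gene Cxcl10 and the factor Stat2. Each line runs 5′ to 3′ on the strand of its gene in build GRCm38.p6, capitals mark matches to the core or to its reverse complement, and the first base transcribed is counted as 0. The windows start at -127 for Ifit3, -144 for Rsad2, -109 for Ifit1, -91 for Isg15, -238 for Cxcl10 and -246 for Stat2.
Ifit3, chr19:34583402-34583460, plus strand: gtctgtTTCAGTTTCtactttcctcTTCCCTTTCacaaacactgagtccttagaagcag
Rsad2, chr12:26456538-26456596, minus strand: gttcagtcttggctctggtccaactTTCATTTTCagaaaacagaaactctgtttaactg
Ifit1, chr19:34640780-34640838, plus strand: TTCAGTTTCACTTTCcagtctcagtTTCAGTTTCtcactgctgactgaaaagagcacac
Isg15, chr4:156200851-156200909, minus strand: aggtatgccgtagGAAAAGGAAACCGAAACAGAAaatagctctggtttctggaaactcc
Cxcl10, chr5:92349069-92349127, minus strand: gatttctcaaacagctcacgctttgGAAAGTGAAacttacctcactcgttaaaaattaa
Stat2, chr10:128270252-128270310, plus strand: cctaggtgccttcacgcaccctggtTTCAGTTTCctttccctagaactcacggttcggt
Ifit1 and Isg15 each hold 3 matches in their window, partly overlapping, and Ifit3 holds 2. The match of Ifi44 lies across the start site itself, from -3, and is not printed.

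The depth of the arrays differed most within pair 3. The 75th percentile of the processed signal lay between 794.2 and 1031, the share of probes well above background between 82.8% and 90.3%, and no spot was saturated (0 on every array). Both lowest values were those of untreated replicate 3, and both highest were those of treated replicate 3. The 6 progenitor markers looked for (Kit, Cd34, Ptprc, Gata2, Lhx2 and Myb) were well above background on all 6 arrays, with a summed level of 119.3 to 131.0 untreated and 120.4 to 139.4 treated, in multiples of an array's 75th percentile signal; most of this sum is Cd34 and Myb. The Lhx2 probe had levels of -4.55 to -3.86, on the log2 scale defined below; whether it lies in the part carried by the vector is not given in the sources used here. Slide 1 held both arrays of harvest 1 and untreated replicate 3, and slide 2 held both arrays of harvest 2 and treated replicate 3, so pairs 1 and 2 each lay on a single slide and pair 3 spanned both.

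Levels below are log2 processed signals from which the 75th percentile of the same array was subtracted, so that 0 is the signal of the 75th percentile spot. They are comparable between arrays for 1 gene, not between genes, whose probes differ.

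No member of the interferon response was called changed by TGF-β1. With limma and Benjamini-Hochberg adjustment over all 29193 genes and transcripts, 74 (0.253%) passed the adjusted p threshold of 0.05 and 0 of the 30 members did. With the replicate number as a block, 194 (0.665%) passed and again 0 members. At an unadjusted p under 0.05, without the block, limma gave 1 member (Rsad2) against 5.77% of all tested, and with the block 6 members (20%) against 10.9%: Rsad2, Ifit3, Usp18, Ifit1, Ifit2 and Irf1. Without the block, the 95% intervals of the changes leave room for changes of either sign in all members but Rsad2, and in the widest case, Ifi44, they run from -1.48 to 1.71. With the block, which keeps the pairs, the intervals lie wholly on one side of 0 for the 6 members just named. The interval of Ifi44 with the block is -0.25 to 0.48. None of these intervals is adjusted for the number of genes tested.

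More members had a negative than a positive change: 23 of 30, where 51.4% of all genes and transcripts tested did. Their median log2 change was -0.12, against -0.01 for all tested, and the members ran from -0.71 to 0.29. The difference from all genes lay mostly in pair 3, which spans the slides: the medians of members and of all tested were -0.11 and -0.07 in pair 1, -0.06 and -0.07 in pair 2, and -0.19 and 0.11 in pair 3. With slide as a block the median of the members was -0.02 and that of all tested -0.06, so the order of the medians turned, with 16 of 30 members negative, against 62.3% of all. Within slide 1 alone the median of the members was -0.05, and within slide 2 alone -0.02, each with no test. The order turned as well without untreated replicate 1 (-0.02 against -0.03), and in pairs 1 and 2 alone the medians were equal (-0.07 and -0.07). The slide block, the single slides and the left-out array break the pairs, so differences between harvests enter those medians. The order also turned with normexp background correction, which moved the median of all genes to -0.16 against -0.05 for the members. A value lower in all 3 pairs was found for 11 members (36.7%), against 20% of all tested, and a value higher in all 3 for 3 members (10%), against 14.1%. The groups did not overlap for 4 members (13.3%), against 10.4% of all: Irf1 was higher (1 member, against 5.36% of all), and Stat2, Adar and Rsad2 were lower (3 members, against 5.05%).

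**Figure D2:**
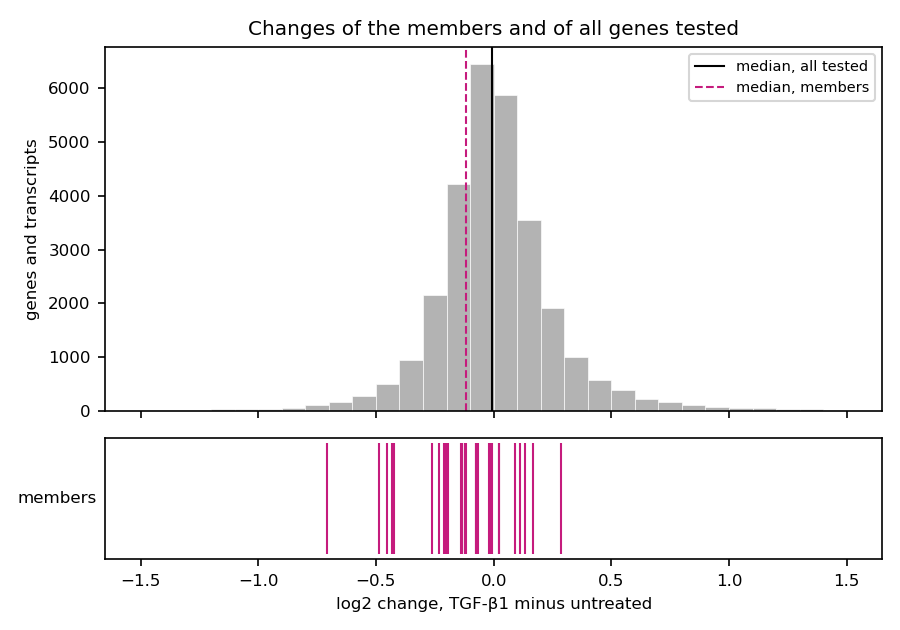
Histogram of log2 changes, TGF-β1 minus untreated, over all 29193 genes and transcripts (upper panel, count per bin of 0.1 log2 units; 29062 are within the drawn range and 131 beyond it) and the change of each of the 30 measured members (lower panel, 1 line each). The members lie between -0.71 and 0.29, within the bulk of all changes; lines mark the medians of -0.12 for the members and -0.01 for all tested, whose order turned with slide as a block, with normexp and without untreated replicate 1.

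The 4 transcription factors of the list did not move together. Irf1, an early interferon target that is itself an activator of many members, had levels of 3.41, 3.55 and 3.55 on the untreated arrays of harvests 1, 2 and 3 and 3.68, 3.89 and 3.79 on the treated ones. Every treated array was above every untreated one. The log2 change was 0.29 (SE 0.13, n = 3 arrays a group), which was not called (limma, adjusted p = 0.948; with the block 0.427), and the dimmer second probe of Irf1 gave 0.04.

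Stat2, the subunit of ISGF3 that carries its activation domain, had levels of 0.95, 0.90 and 1.11 untreated and 0.86, 0.71 and 0.76 treated. The treated arrays were all below the untreated ones, by a log2 change of -0.21 (SE 0.13), which was not called (limma, adjusted p = 1; with the block 0.601). Irf9, the DNA-binding subunit of ISGF3, stood at 1.21, 0.88 and 1.27 untreated and at 1.18, 0.87 and 1.27 treated. These values repeat within each pair to 0.02 log2 or less in size (-0.02, -0.00 and 0.00), while the harvests differ by up to 0.39; the second probe of Irf9 gave a change of -0.20. Irf7, the factor that amplifies type I interferon production, had -1.21, -1.97 and -1.52 untreated and -1.39, -2.20 and -1.88 treated. It was lower on the treated array of each pair, by -0.19, -0.23 and -0.36, but the groups overlapped because the harvests lay further apart than the treatment groups (adjusted p = 1 by limma, 0.488 with the block). Its mean change of -0.26 became -0.05 with slide as a block, -0.08 without untreated replicate 1 and -0.07 without treated replicate 2. Over all fits with an array left out it ran from -0.48 to -0.07. These fits break the pairs, so differences between harvests enter them.

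The sensors and sensor-linked enzymes gave small changes. These 8 genes are Ifih1 (MDA5) and Dhx58 (LGP2), cytoplasmic receptors of the RIG-I family for double-stranded RNA, Eif2ak2 (PKR), a kinase that halts translation, the oligoadenylate synthetase genes Oas1a, Oas2 and Oas3 with the related Oasl2, and the RNA-editing enzyme gene Adar. Their changes ran from -0.23 (Dhx58) to 0.02 (Oasl2), 7 of 8 were negative, and Dhx58 and Adar were lower in all 3 pairs. The lowest adjusted p among them was 1 without the block and 0.534 with it (limma). The Oas1 family has near-identical copies in the mouse, so the Oas1a probe may also read its relatives.

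The antiviral effectors held the changes of greatest size among the members, and none passed the test. Rsad2 encodes viperin, a radical enzyme that makes a chain-terminating nucleotide. Its levels were 0.06, -0.44 and -0.36 on the untreated and -0.64, -0.96 and -1.25 on the treated arrays. The groups did not overlap, and the pairs differed by -0.71, -0.52 and -0.89. The log2 change of -0.71 (SE 0.22, 95% interval -1.23 to -0.19), a level 1.63-fold lower after TGF-β1, had an unadjusted p of 0.0153 and an adjusted p of 0.527 (limma), and 0.122 adjusted with the block. The other 2 probes of Rsad2 gave -0.42 and -0.51.

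The Ifit genes encode proteins with tetratricopeptide repeats that bind viral RNA or inhibit its translation, and they lie next to each other in the genome. Ifit1 had levels of -2.14, -3.06 and -2.95 untreated and -2.79, -3.55 and -3.17 treated. Ifit2 had -1.72, -2.07 and -2.58 untreated and -2.48, -2.67 and -2.68 treated. Ifit3 had -1.52, -2.99 and -3.04 untreated and -1.94, -3.51 and -3.36 treated. All 3 were lower on the treated array of every pair, and in each the groups overlapped, since untreated harvest 3 lay below treated harvest 1. The changes were -0.45 for Ifit1 (SE 0.31), -0.49 for Ifit2 (SE 0.23) and -0.42 for Ifit3 (SE 0.56), with adjusted p-values of 1, 0.986 and 1 (limma). With the block they were 0.315, 0.390 and 0.259, the spread of Ifit3 shrinking from an SE of 0.56 to 0.11. The dimmer probe of Ifit2 gave -0.02, and Ifit3 has a near-identical copy, Ifit3b, which its probe may also read. Without untreated replicate 1 the unpaired changes were -0.16 for Ifit1, -0.29 for Ifit2 and 0.08 for Ifit3. Leaving out other arrays also moved them the other way, to as low as -0.64 for Ifit1, -0.71 for Ifit2 and -0.92 for Ifit3. Ifit1 had -0.26 without treated replicate 2 and -0.27 with slide as a block, and slide as a block took Ifit3 to -0.05. These fits break the pairs, so differences between harvests enter them. Pairs 2 and 3 do not use untreated replicate 1. They were -0.49 and -0.21 for Ifit1, -0.60 and -0.10 for Ifit2, and -0.53 and -0.32 for Ifit3.

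Other effectors showed no common direction. Ifitm3, a membrane protein that blocks viral fusion, had 5.63, 5.23 and 5.84 untreated and 5.66, 5.40 and 5.92 treated, a change of 0.09 (95% interval -0.43 to 0.61). Bst2, or tetherin, which holds budding virus at the cell surface, had 3.82, 3.49 and 3.99 untreated and 4.04, 3.72 and 3.503 treated. Bst2 was higher on the treated array in pairs 1 and 2 (0.23 and 0.23) and lower in pair 3 (-0.49), and its mean change of -0.01 became 0.13 with slide as a block. Gbp2, an interferon-inducible guanylate-binding GTPase, had 1.22, 1.52 and 0.51 untreated and 0.84, 1.47 and 0.72 treated, with pairs of -0.38, -0.05 and 0.21. Ifi44, a cytoplasmic protein of less well known function, had -2.94, -4.31 and -5.16 untreated and -2.97, -4.35 and -4.75 treated. Within harvests 1 and 2 its pairs agreed to -0.03 and -0.04, while harvests 2 and 3 differed from harvest 1 by -1.38 and -2.01. Ifi35 had a change of -0.13.

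The ISG15 system adds and removes a ubiquitin-like protein. Isg15, the modifier itself, had 0.16, -0.31 and 0.13 untreated and 0.29, -0.39 and -0.26 treated; its pairs were 0.13, -0.08 and -0.40, so treated and untreated arrays were mixed. Usp18, the protease that removes ISG15 and a negative regulator of the type I receptor, had 1.05, 0.55 and 0.88 untreated and 0.48, 0.03 and 0.67 treated. It was lower on the treated array of each pair (-0.57, -0.51 and -0.21), a change of -0.43 (SE 0.22) that was not called (limma, adjusted p = 1, with the block 0.313). With an array left out the change ran from -0.57 to -0.25, the latter without treated replicate 2. The ubiquitin ligase genes Trim25, which acts on RIG-I, and Trim21, an antibody receptor in the cytosol, had changes of 0.02 and -0.12.

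Parp9 and Parp14, members of the ADP-ribosyltransferase family, had changes of -0.20 and -0.14. The peptide transporter genes Tap1 and Tap2, which load class I molecules, had -0.19 and 0.13; Tap2 stood at 2.43, 2.29 and 2.08 untreated and 2.45, 2.30 and 2.45 treated, and its pairs were 0.02, 0.01 and 0.37. Cxcl10, a chemokine that draws CXCR3-bearing lymphocytes, had -2.53, -3.70 and -2.28 untreated and -2.43, -2.83 and -2.75 treated. Its spread among untreated arrays (SD 0.76, n = 3) was larger than its change of 0.17.

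**Figure D3:**
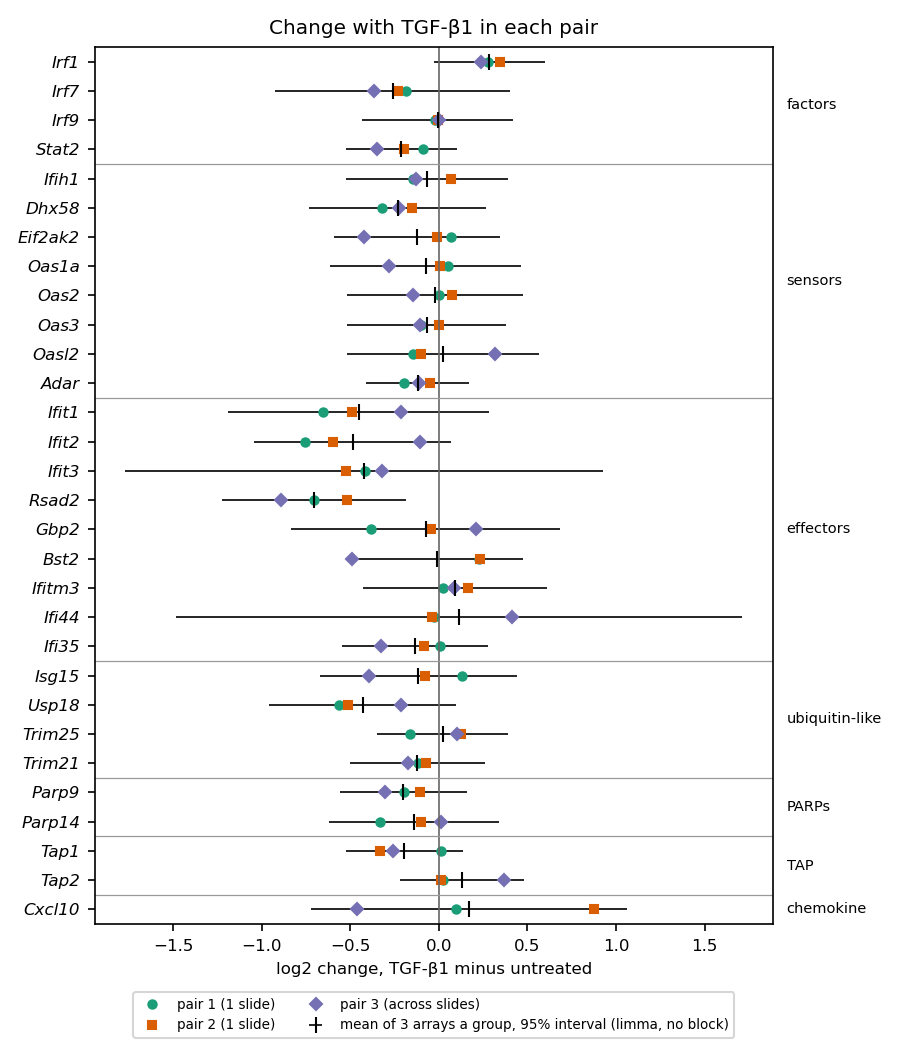
Log2 change with TGF-β1 in each of the 3 pairs (coloured symbols) for the 30 members, grouped by role, with the mean of the groups and its 95% interval from limma without a block (black). Rsad2 is the member whose interval (-1.23 to -0.19) lies wholly on one side of 0, and pair 3, which spans the slides, differs in sign from both other pairs for 9 of 30 members (Irf9, Oas1a, Oas2, Oasl2, Gbp2, Bst2, Ifi44, Parp14 and Cxcl10), against 36.7% of all tested.

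**Figure D4:**
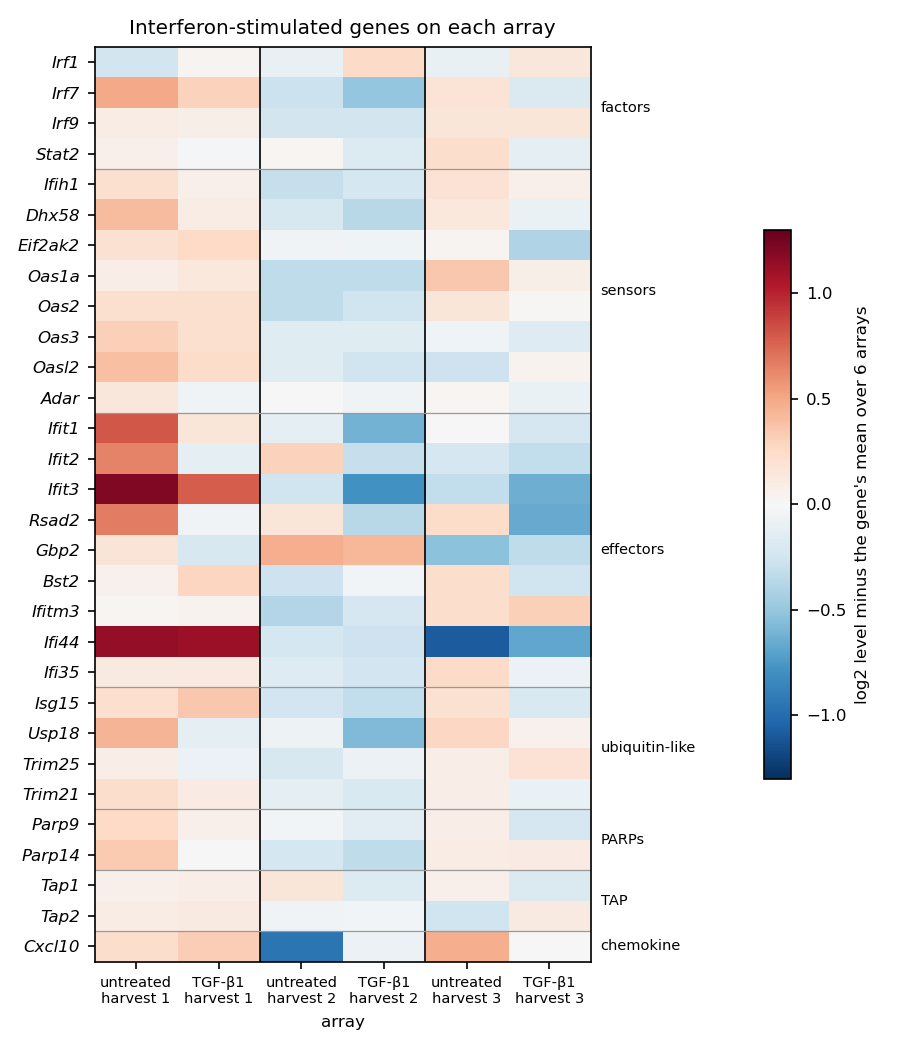
Level of each member on each of the 6 arrays, as log2 difference from that gene's own mean over the arrays (colour), ordered by harvest and by role of the gene. Ifit3 and Ifi44 are high on both arrays of harvest 1, and most members are lower (bluer) in harvest 2 than in harvest 1.

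Most members stood higher in harvest 1 than in the other harvests. The mean of the untreated and the treated array of a harvest was compared over harvests, with treatment as a covariate. Harvest 2 was below harvest 1 for 28 of 30 members (93.3%), all but Irf1 and Gbp2, where 41.5% of all genes and transcripts tested were; the median difference was -0.37 for members and 0.09 for all. The share of all genes depends on the scaling: it was 53.1% with quantile normalization, 53.6% in the authors' matrix values and 53.6% with normexp, where 24, 25 and 28 members were lower in harvest 2. On the untreated arrays alone it held for 27 members, against 41.4% of all tested, on the treated arrays alone for 27, against 42.2%, and on both for 26 (86.7%), against 32.8%. Harvest 3 was below harvest 1 for 23 members (76.7%), against 40.1% of all, by a median of -0.17 against 0.08, and on both kinds of array for 19 members, against 23.8% of all. Harvest 1 was the highest of the 3 for 22 members (73.3%), against 26.9% of all, harvest 2 was the lowest for 21 (70%), against 32%, harvest 3 for 8, against 22.7%, and harvest 1 for 1 (Irf1), against 45.3%. The range over harvests had a median of 0.46 log2 units for members and 0.37 for all tested.

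Of the members, 2 passed the F-test over harvests at an adjusted p under 0.05 (limma), 6.67% of the 30, against 904 (3.1%) of all tested. Ifit3 had harvest means of -1.73, -3.25 and -3.20, a range of 1.52 log2 units or 2.87-fold (adjusted p = 0.0135). Ifi44 had means of -2.95, -4.33 and -4.96, a range of 2.01 log2 units or 4.02-fold (adjusted p = 0.0172). It was the dimmest measured member, with a level of -5.16 on untreated replicate 3, and the size of its range depended on the processing. The range was 1.23 with normexp and 1.25 in the authors' log2 matrix values. Both genes were highest in harvest 1, on the untreated and on the treated array alike. At an unadjusted p under 0.05 there were 12 members (40%), against 21.5% of all tested.

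The calls changed with single arrays left out, while the ranges stayed close to these. Without untreated replicate 1 neither gene passed (adjusted p = 0.0755 for Ifit3 and 0.0536 for Ifi44), with ranges of 1.52 and 1.90, and without treated replicate 1 or treated replicate 2 Ifi44 alone passed, with ranges of 1.52 and 1.48 for Ifit3. Without untreated replicate 3 or treated replicate 3, 11 and 9 members passed, among 8314 (28.5%) and 6629 (22.7%) of all tested. With normexp 8 members passed among 15951 (54.6%) of all, and in the authors' log2 matrix values 6 among 1662 (5.69%). Ifit3 and Ifi44 were among the members called under all 4 of these settings.

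The next largest ranges over harvests were those of Gbp2 (0.88, adjusted p = 0.158), Ifit1 (0.84, 0.126), Cxcl10 (0.79, 0.297) and Irf7 (0.78, 0.103), none of which was called by limma. The range of Cxcl10 was 0.26 without untreated replicate 2, 1.32 without treated replicate 2, 1.23 without treated replicate 3 and 0.44 with slide as a covariate, so its place in this order rests on single arrays. Gbp2 took another order from most members: its harvest means were 1.03, 1.497 and 0.62, highest in harvest 2. The smallest ranges were those of Adar (0.08), Stat2 (0.13) and Tap1 (0.14), so the editing enzyme, the ISGF3 subunit and a transporter gene stood at nearly the same level in each harvest. All 8 sensors, all 4 genes of the ubiquitin-like group and 8 of the 9 measured effectors were lower in harvest 2 than in harvest 1.

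Harvest and slide cannot be fully told apart. Both arrays of harvest 1 were on slide 1 and both of harvest 2 on slide 2, and harvest 3 alone was on both. Within slide 1, untreated replicate 3 was below untreated replicate 1 for 22 members (73.3%), against 48.8% of all tested, with a median difference of -0.15 against 0.01. Within slide 2, treated replicate 3 was above treated replicate 2 for 19 members (63.3%), which is near the 62.1% of all tested. With slide as a further covariate 23 members were below harvest 1 in harvest 2, against 56.8% of all tested, with a median of -0.29 against -0.05 for all. Ifit3 and Ifi44 were called in that fit, among 1340 (4.59%) of all tested. Its slide term rests on pair 3 alone, set against pairs 1 and 2, so the fit does not separate slide from harvest.

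**Figure D5:**
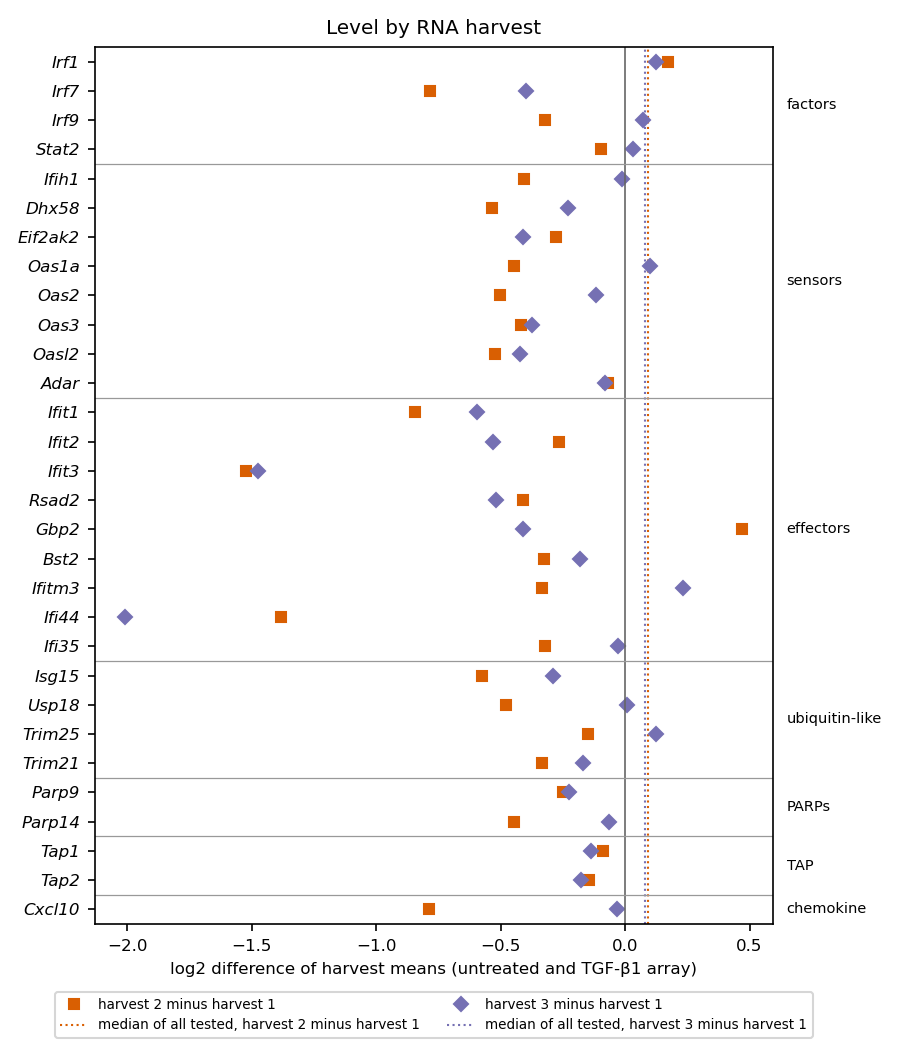
Difference of harvest 2 (squares) and harvest 3 (diamonds) from harvest 1 for each member, in log2 units of the mean of the untreated and the treated array; dotted lines mark the medians of all tested, 0.09 and 0.08. All members but Irf1 and Gbp2 lie below 0 in harvest 2, and Ifit3 (-1.52 and -1.48) and Ifi44 (-1.38 and -2.01) lie furthest below.

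Markers of other cell types also differed between the harvests, and their part in these results was not tested. Of the 6 stromal and fibroblast markers, 5 were called by harvest (Col1a1, Col1a2, Col3a1, Pdgfra and Dcn), against 3.1% of all tested. The 6 had a summed level of 23.3 in harvest 1, 64.9 in harvest 2 and 1.76 in harvest 3, in multiples of the 75th percentile signal. This sum was highest in harvest 2, where 21 of the 30 members were lowest, and lowest in harvest 3. Of the 5 measured monocyte and macrophage markers Csf1r was called (adjusted p = 0.022 by limma), with a summed level of 151.2, 147.6 and 178.4, and of the 6 plasmacytoid dendritic cell markers Irf8 was (0.0139), with a summed level of 17.8, 14.5 and 19.6. That last sum is mostly Bst2 and Irf8, which were lower in harvest 2 than in harvest 1. The other 4, Siglech, Ccr9, Klk1 and Cox6a2, were higher there (0.45, 0.34, 0.51 and 0.46), and the median over the list was 0.39. Siglech was well above background on 3 of the 6 arrays only. The lymphocyte markers were higher in harvest 2 by a like median of 0.41. None of the 5 measured lymphocyte and 2 measured natural killer markers was called by harvest (0 and 0), and their summed levels were 1.101, 1.44 and 1.09, and 0.129, 0.133 and 0.111. Between treatment groups limma called 0 of the 30 markers measured, with or without the block, against 0.665% and 0.253% of all tested. An unadjusted p under 0.05 was found for 3 markers without the block, against 5.77% of all tested. With the block it was found for 8, against 10.9%. Bst2 stands in both the dendritic cell list and among the members. In RNA from whole cultures, fewer cells of a type and less RNA per cell cannot be told apart.

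The rest of the interferon pathway, listed by role apart from the members, likewise held no call by TGF-β1. Of 120 listed genes 97 were measured, 0 were called by limma with or without the block, 6 without and 14 with it had an unadjusted p under 0.05, against 5.77% and 10.9% of all tested, and 63 had a negative change, against 51.4%. All of the 18 receptor and JAK-STAT genes were measured. Ifnar1 and Ifnar2, the chains of the type I receptor, had changes of -0.09 (SE 0.20) and -0.04 (SE 0.16), and Ifngr1, the ligand-binding chain of the gamma receptor, -0.20 (SE 0.16). Jak1, a kinase bound to both receptors, had -0.03. The feedback inhibitors Socs1 and Socs3 had -0.00 and -0.10.

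Among 9 measured interferon genes, Ifnb1 had levels of -5.32, -5.63 and -5.12 untreated and -5.37, -5.02 and -4.85 treated, a change of 0.28 (SE 0.20; limma, adjusted p = 1). The ligand genes ran from -0.11 to 0.28, and their summed level was 1.12 to 1.65 times the 75th percentile signal over all arrays. The 15 measured genes of sensing and induction beyond the members ran from -0.46 to 0.81, with 7 negative. B2m, the light chain of class I molecules, had 0.03, and the 11 measured class I presentation genes ran from -0.14 to 0.03. The 44 measured further interferon-stimulated genes had a median change of -0.11, with 33 negative, and ran from -0.76 to 0.85.

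Some genes of these lists were picked after their values were seen. Tgtp1 and Ifi47, interferon-inducible GTPases, had -0.76 (SE 0.37) and -0.68 (SE 0.20), with adjusted p-values of 1 and 0.446 without and 0.0817 and 0.0958 with the block (limma). Irf8, a myeloid and dendritic cell factor, had 0.81 (SE 0.60; 1 without and 0.0857 with the block), and Jak2 had 0.40 (SE 0.12; 0.538 and 0.267). By harvest limma called 5 of the 97, against 3.1% of all tested. They were Irf8 (adjusted p = 0.0139), Tlr7 (0.024), Ifnlr1 (0.0344), Gbp4 (0.0417) and Tgtp1 (0.0435). Gbp4 was well above background on 3 of the 6 arrays only. Tgtp1 was highest in harvest 1 (1.91, 0.93 and 0.96), whereas Irf8 was highest in harvest 3 (0.98, 0.65 and 2.39). Harvest 2 was below harvest 1 for 68 of the 97 genes, against the 41.5% of all tested given above.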

How the data were processed

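RNA labelled with Cy3 was hybridised to 6 1-colour arrays (Agilent design 014868, with mm8 annotation), and per the file headers Feature Extraction 10.1.1.1 read the spots. The deposited processed intensity has its background subtracted on each array, without scaling from array to array, as the headers state. The authors' deposited series matrix holds log2 values that follow the log2 median spot signal (r 0.99951 to 0.99989; column medians 7.385 to 7.421); the submitters' processing notes name limma, and other steps taken are not stated there.

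Values used here are log2 processed intensity minus each array's 75th percentile over 43379 non-control spots. Spots flagged as outliers (43 to 101 per array) were left out, spots of a probe averaged, and probes kept if well above background on at least 3 of 6 arrays (36384 of 41174). Accessions named 23374 probes (16535 symbols) through RefSeq of GRCm38.p6, used for names and promoters. The treatment comparison used limma 3.58.1 (R 4.3.3, lmFit, eBayes, Benjamini-Hochberg over all 29193), and harvests by a limma F-test with treatment as covariate. Both were run on simulated data, with noise drawn separately for each array and no harvest differences in the treatment simulation. That simulation therefore does not test the fit without the block where harvests differ. The number of arrays limits the precision. Same-numbered samples deviated together (r 0.636, 0.786 and 0.557, against -0.736 to 0.0712 for different numbers), and the number marks a shared harvest in the series design, so it pairs the samples. The files used here have no mean spot signal, so the normexp alternative (offset 50) used the median signal.

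The members, role lists and tests were chosen with earlier results of these data known. Members given array by array were 11 well-known ones, those called by harvest, the 3 greatest changes each way and the 4 greatest harvest ranges; the other pathway genes named were chosen for their role, any others were picked after their values were seen, and 1 gene of the rule is not reported here.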

Additional observations from a re-analysis of the deposited data

How the results depend on the processing

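No member was called by TGF-β1 (0 of 30) under any alternative run: normexp background, quantile normalization, the authors' matrix values, no filter or a stricter filter on dim probes, the mean of a gene's probes, the replicate block, slide as a block, each array left out, and pairs 1 and 2 only with the block (added after seeing the data; lowest member adjusted p 0.0968, Ifit2). The genes and transcripts called by treatment numbered 74, and 5 with normexp, 171 in the matrix values, 194 with the replicate block and 7 to 24 with an array left out. By harvest 904 were called, with 2 members; normexp gave 15951 with 8 members, the matrix values 1662 with 6, and leaving out an array 458 to 8314 with 0 to 11. The median change of the members, -0.12, became -0.0227 when slide was the block, -0.0496 inside slide 1 and -0.0155 inside slide 2, and -0.226 to -0.0201 with an array left out (-0.0201 without untreated replicate 1 and -0.0286 without treated replicate 2). Members with a negative change numbered 17 to 26 with an array left out, and members lower in harvest 2 than in harvest 1 27 to 28 (24 with quantile normalization, 25 in the matrix values and 23 with slide as a covariate). Pairing by the replicate block left every change as it was and ended or made no call among the members.

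Some changes turned sign, none of them called and with the cause not tested. Most were small, but Ifit3, with a change of -0.42 and lower in all 3 pairs, turned without untreated replicate 1. Fits with slide as a block or an array left out break the pairs, so differences between harvests enter their values. With the replicate block, which keeps the pairs, the SE was 0.14 for Ifi44 and 0.11 for Ifit3. With normexp Irf9 became 0.0082, Bst2 0.0658, Cxcl10 -0.0554 and Ifi44 -0.28; with quantile normalization Irf9 0.0128 and Bst2 0.0258; in the matrix values Bst2 0.0101 and Ifi44 -0.0304; with slide as a block Irf9 0.0715, Isg15 0.0631 and Bst2 0.13; in pairs 1 and 2 alone Isg15 0.0254, Bst2 0.229 and Ifi44 -0.0344. With an array left out the ranges were -0.13 to 0.11 for Irf9, -0.32 to 0.0181 for Isg15, -0.92 to 0.0774 for Ifit3, -0.0785 to 0.23 for Ifitm3, -0.15 to 0.12 for Bst2, -0.26 to 0.45 for Cxcl10, -0.42 to 0.71 for Ifi44 and -0.36 to 0.15 for Gbp2. The members were well above background on all 6 arrays, yet the background method moved some of them, as given above for Ifi44 and Cxcl10.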
